A study of Arabidopsis thaliana with 2 samples.

Results

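DREB2C and 5 heat shock protein genes were described by their signals on 2 Arabidopsis arrays, the NOT array and the WDC array. The genes were listed by name, and every probe set that the platform annotation assigned to them alone was taken, which gave 8 probe sets of 8247 without controls, and 6 genes of 3592 with a named probe set. They comprise the transcription factor DREB2C (AT2G40340), the small heat shock proteins AT1G59860, AT2G29500 and AT1G53540, and the cytosolic HSP70 genes Hsp70-2 (AT5G02490) and AT3G09440. The members were chosen by their function and selected on the ratio of their NOT to WDC signals, which was known when the list was drawn up, so these ratios are a description and were not tested.

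Both samples were total RNA of rosette leaves of Col-0, the reference accession of Arabidopsis thaliana, in a series on the action of nitric oxide in plants. Per the labels, seeds were stratified at 4 °C for 1 week, plants grew on compost in a growth room at 22 °C with light for 24 h a day and were at growth stage 3.5, and each sample pooled 4 experiments of about 8 leaves, which is written on the NOT sample's record for both. Seedlings are named in the extraction protocol, against rosette leaves in the tissue label. The labels explain neither NOT nor WDC, name no genotype beyond the accession and mention a control without tying it to either code, so all ratios are given as NOT over WDC and neither group is called treated.

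Heat shock proteins are chaperones, which keep other proteins folded or help them to fold again. Small heat shock proteins bind unfolding proteins without using ATP and hold them in a state from which the ATP-driven HSP70 chaperones can refold them. In leaves, many small heat shock protein genes are nearly silent at normal temperature and strongly induced by heat, while cytosolic HSP70 genes include members that are active all the time. DREB2C belongs to the AP2/ERF family of DNA-binding proteins, and members of its DREB2 branch act in responses to drought and heat, in part through heat shock transcription factors.

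All 8 probe sets gave a lower signal on the NOT array than on the WDC array, by very different amounts. The median log2 ratio of all 4753 measured probe sets was 0.00. Nothing is read from the shared direction, because the genes were chosen with these ratios known. DREB2C was 7.09-fold lower in NOT, the small heat shock protein AT1G59860 was 5.86-fold lower and Hsp70-2 was 2.87-fold lower. AT3G09440, the other cytosolic HSP70 gene, gave nearly equal signals by its brightest probe set, 1.11-fold lower, and the small heat shock protein AT2G29500 was 1.29-fold lower. AT1G53540, the third small heat shock protein, lay close to the limit of measurement. The NOT signal of DREB2C was also near that limit, so the size of its fold is less certain. Its only probe set can match transcripts of related genes. Each group was 1 array of pooled RNA, so no value has a replicate check and no test was possible, and precision is limited by the number of arrays. In pooled whole leaves, fewer cells of a type and less RNA per cell cannot be told apart.

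**Figure D1:**
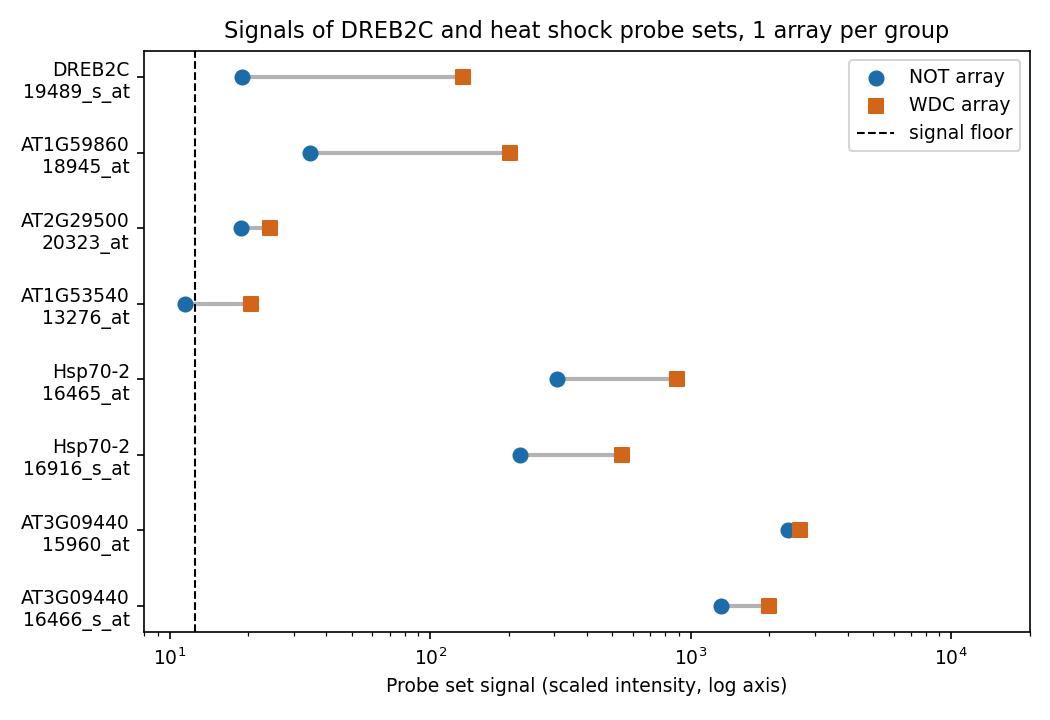
Signal of each probe set of DREB2C and the 5 heat shock protein genes on the NOT array (circles) and the WDC array (squares), in scaled intensity on a log axis, with the floor of 12.5 as a dashed line. The NOT circle lies to the left of the WDC square in all 8 rows, far to the left for DREB2C and AT1G59860 and by little for AT2G29500 and the upper row of AT3G09440.

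Signals are given below as deposited, in units of scaled intensity. A ratio was taken only where a probe set exceeded a signal floor of 12.5 on both arrays, the 40th percentile of all values without controls. Of the 8 probe sets, 7 did so, which measured 5 of the 6 genes. By the brightest probe set of each gene, 3 of these 5 genes were at least 2-fold lower in NOT, and none lay between 1.5-fold and 2-fold. For comparison, 2.95% of all 1934 named genes measured on both arrays were at least 2-fold lower and 1.09% at least 2-fold higher. By the 1.5-fold rule 9.05% of them were lower and 4.71% higher. Nothing is read from the share among the listed genes, because they were chosen with these ratios known. Counted by probe set, 5 of the 7 measured were at least 1.5-fold lower and 4 at least 2-fold lower, beside 8.73% and 3.32% of the 4753 probe sets measured on both arrays.

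**Figure D2:**
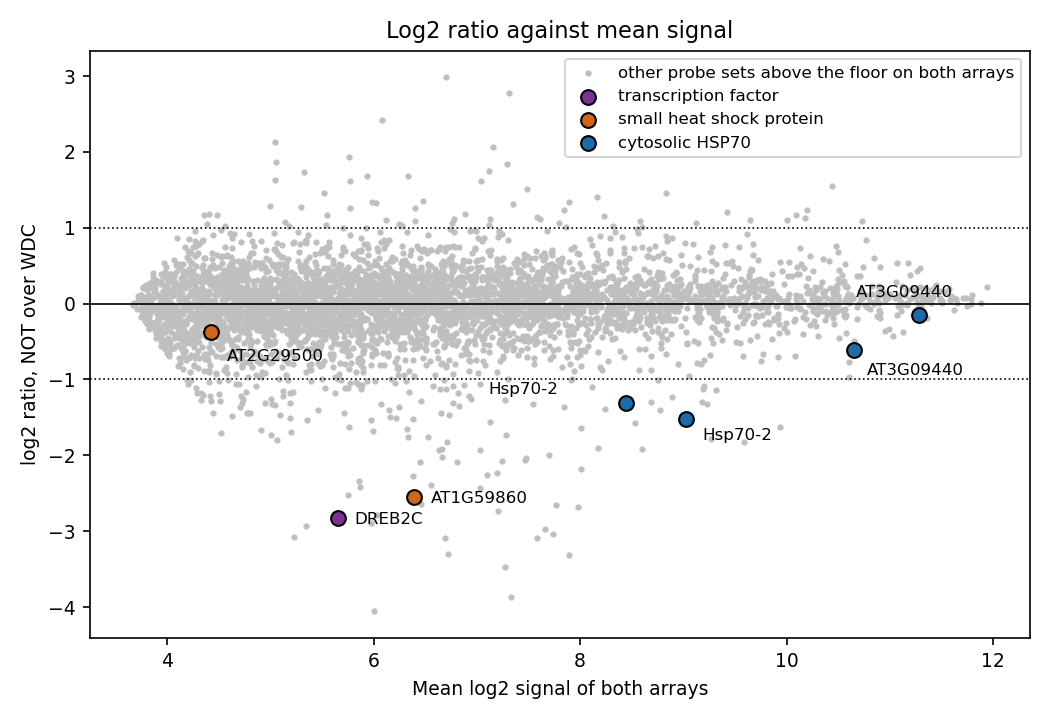
Log2 ratio of NOT over WDC against the mean log2 signal of both arrays for the 4753 probe sets above the floor on both, with the 7 measured probe sets of DREB2C (purple), small heat shock proteins (orange) and HSP70 genes (blue) marked, and dotted lines at 2-fold. DREB2C, AT1G59860 and both Hsp70-2 points lie below the lower dotted line, at -2.83, -2.55, -1.52 and -1.30, while AT2G29500 and AT3G09440 lie within the main cloud.

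The transcription factor DREB2C had 1 probe set, with a signal of 18.9 on the NOT array and 134.0 on the WDC array. The WDC signal was 10.7 times the floor and the NOT signal 1.51 times, so DREB2C was plainly detected in WDC and stood near the limit of measurement in NOT. The log2 ratio was -2.83, and 12 of the 4753 measured probe sets had a lower one. The probe set carries the suffix that the array's maker used for probes matching more than one transcript (the shared mark below), so transcripts of related genes can add to its signal. With NOT so near the floor, the size of the fold is less certain than the order of the signals.

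The DREB2 branch has close relatives that were listed for comparison. AT2G40350, a member of the same branch and the next protein-coding gene after DREB2C in RefSeq's gene order, read 12.6 on the NOT array and 15.9 on the WDC array. This was a log2 ratio of -0.34, with both signals barely above the floor. AT3G57600, another AP2/ERF factor of the DREB2 branch, read 2.7 in NOT against 3.9 in WDC, below the floor on both arrays. Thus, of the listed DREB genes with a named probe set, DREB2C was the one measured well above the floor, and on 1 array only. The other 10 of 13 listed DREB factors and their regulators had no named probe set in the annotation used here.

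Among the small heat shock proteins, 2 were measured on both arrays, and AT1G59860 had the lower ratio. These cytosolic proteins share a conserved alpha-crystallin domain and assemble into large complexes around unfolding proteins. AT1G59860 read 34.7 on the NOT array and 203.3 on the WDC array, which were 2.78 and 16.3 times the floor. Its log2 ratio was -2.55, and 18 of the measured probe sets had a lower one. The probe set carries no shared mark.

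AT2G29500, a small heat shock protein of the same cytosolic class, read 18.8 in NOT against 24.3 in WDC, a log2 ratio of -0.37. Both signals lay within 1.94 times the floor, and 16.6% of all measured probe sets had a lower ratio. AT1G53540, also of that class, read 11.5 in NOT, under the floor, and 20.5 in WDC. It was therefore at least 1.64-fold lower in NOT, the WDC signal over the floor, and with the floor lowered to 4.3 its log2 ratio was -0.83. Neither probe set carries a shared mark.

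All 3 genes thus had the lower signal in NOT, and AT1G53540 had a bound in place of a ratio. The log2 ratios of AT1G59860 and AT2G29500 were 2.18 apart, with AT1G59860 the lower. With a WDC signal of 1.94 times the floor, AT2G29500 could not have had a measured ratio as low as that of AT1G59860. The sizes of the 3 changes can therefore not be compared.

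The small heat shock proteins of other compartments and classes with a named probe set did not exceed the floor. Of the 8247 probe sets without controls, 4383 name no gene here, and these were not searched for further members. ATHSP22.0, a small heat shock protein of the endoplasmic reticulum, read 3.7 on the NOT array and 1.3 on the WDC array, with a shared mark on its probe set. AT1G54050, a small heat shock protein of another cytosolic class, read 1.4 in NOT against 4.6 in WDC. Both stayed under the floor on both arrays, so no ratio is given for them. Of 17 listed small heat shock proteins, 5 had a named probe set, and AT1G59860 was the one at least 1.5-fold lower among 2 measured on both arrays.

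Both cytosolic HSP70 genes had 2 probe sets each, all far above the floor. HSP70 proteins bind and release stretches of unfolded protein in a cycle driven by ATP, and Hsp70-2 and AT3G09440 belong to the cytosolic and nuclear branch of the family. The brightest probe set of Hsp70-2 read 307.2 in NOT against 882.9 in WDC, a log2 ratio of -1.52. Its second probe set, which carries the shared mark, read 221.3 in NOT against 546.3 in WDC, a log2 ratio of -1.30. The NOT signal was thus the lower one by more than 2-fold on both. The 2 ratios differed by 0.22, near the median difference of 0.20 among the 83 genes with exactly 2 measured probe sets, and their mean was -1.41. Probe sets of the same gene scattered around their gene's mean with an SD of 0.197 on the log2 scale, over 93 genes with more than 1 measured probe set. That SD covers probe noise and not variation between plants.

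AT3G09440 read 2360.9 in NOT against 2628.3 in WDC on its brightest probe set, a log2 ratio of -0.15. Its second probe set, which carries the shared mark, read 1306.4 in NOT against 1990.0 in WDC, a log2 ratio of -0.61. The first lay within 1.5-fold and the second just past it, so the call for AT3G09440 depends on the probe set. With both arrays scaled to the spiked-in controls the second came to -0.46, within 1.5-fold. The 2 ratios differed by 0.45, and 9 of the 83 genes with 2 measured probe sets, or 10.8%, had a larger difference. Their mean was -0.38.

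**Figure D3:**
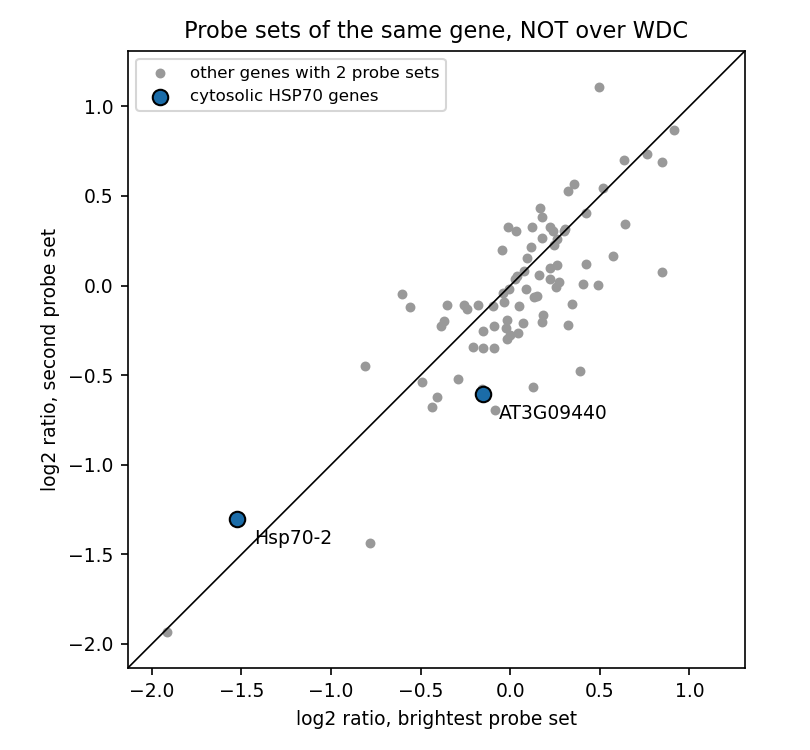
Log2 ratio of NOT over WDC on the second probe set of a gene against that on its brightest probe set, for the 83 genes with exactly 2 measured probe sets, with the line of equality. Hsp70-2 lies near the line at -1.52 and -1.30, and AT3G09440 lies below it at -0.15 and -0.61.

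The 2 HSP70 genes were set against each other on probe sets of the same kind. On the probe sets without a mark, the log2 ratios of Hsp70-2 and AT3G09440 were 1.37 apart, with Hsp70-2 the lower. On the probe sets with the shared mark they were 0.70 apart in the same direction. The cytosolic HSP70 genes are much alike in sequence, and a marked probe set can take up RNA of a related gene. How much of either marked signal came from a relative was not tested. HSC70-1, a cytosolic HSP70 gene next to Hsp70-2 in RefSeq's gene order, had no named probe set here.

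The other measured genes of the HSP70 and HSP110 lists lay within 1.5-fold. AT1G11660, of the HSP110 type, read 25.3 on the NOT array and 27.6 on the WDC array, a log2 ratio of -0.13 that turned to 0.02 with control scaling. AT4G16660, an HSP70-related protein of the endoplasmic reticulum, read 59.3 in NOT against 39.8 in WDC on its brightest probe set, a log2 ratio of 0.58. Its second probe set read 48.9 in NOT against 43.7 in WDC, a log2 ratio of 0.16. Among listed genes above the floor on both arrays, AT4G16660 was the one with the higher signal in NOT, just within 1.5-fold, and it passed the 1.5-fold rule with quantile normalization (0.64), loess (0.59) and control scaling (0.72). Of 18 listed HSP70 and HSP110 genes, 4 had a named probe set and all 4 were measured.

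Partners of HSP70 and HSP90 were measured in part. AT4G02450, a p23-type co-chaperone of HSP90, read 142.1 on the NOT array and 169.6 on the WDC array, a log2 ratio of -0.26. Hop3, a heat-induced adaptor that links HSP70 to HSP90, read 3.0 in NOT against 0.8 in WDC, under the floor on both arrays. SGT1A, another co-chaperone of HSP90, gave 88.8 (NOT) and 84.0 (WDC), a log2 ratio of 0.08, and SQN, a cyclophilin that binds HSP90, gave 7.4 (NOT) and 11.6 (WDC), under the floor. SGT1A and SQN were chosen after their values were seen. No listed gene of HSP90, HSP100 and HSP60 (13 genes) or of the heat shock transcription factors (21 genes) had a named probe set here, so these regulators and partners were not analysed.

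Over 6 lists of 101 heat shock and DREB genes, 14 had a named probe set, 9 were measured on both arrays, and 1, AT1G53540, had a bound. Of the 9, 3 were at least 1.5-fold lower and 0 at least 1.5-fold higher, and the 3 were DREB2C, AT1G59860 and Hsp70-2. By the same rule, 9.05% of all 1934 named genes measured were lower and 4.71% higher. The median log2 ratio of the 9 was -0.34, or -0.35 with AT1G53540 added at its bound, beside -0.02 over all 1934 named genes. Without the 6 genes described here, 4 of 95 genes were measured (AT2G40350, AT4G02450, AT1G11660 and AT4G16660). All 4 lay within 1.5-fold, as did 1668 of all 1934 named genes measured, and the median of the 4 was -0.19. The lower signals past 1.5-fold in these lists therefore all came from genes that had been chosen with their values known.

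**Figure D4:**
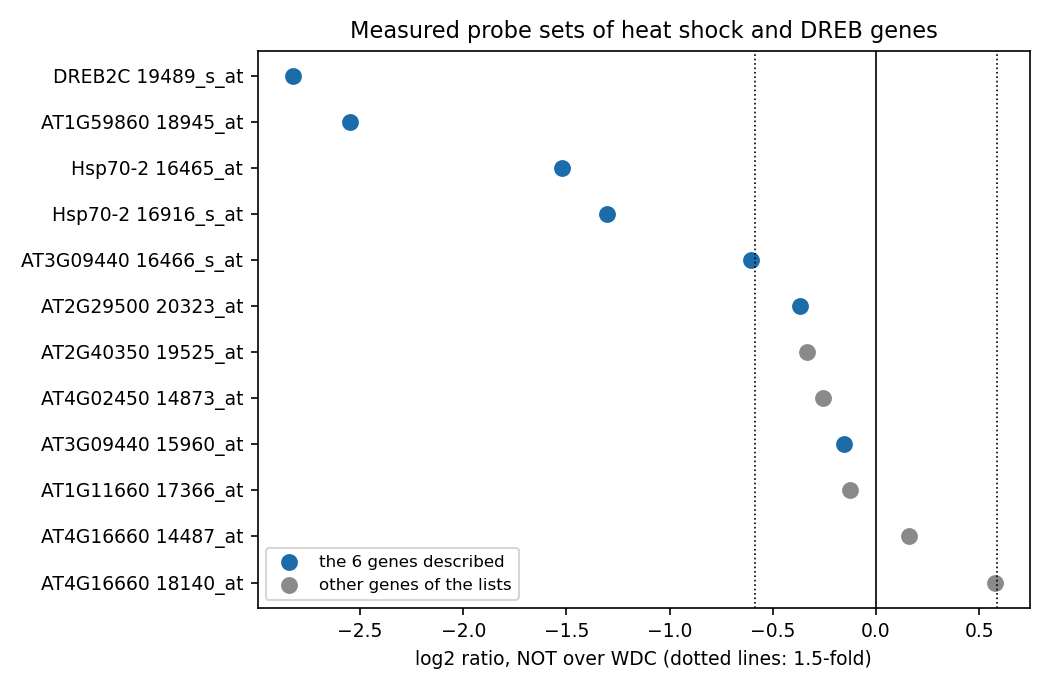
Log2 ratio of NOT over WDC of the 12 measured probe sets of the listed heat shock and DREB genes, in order, with dotted lines at 1.5-fold. The probe sets beyond the lower line belong to DREB2C, AT1G59860, Hsp70-2 and the second probe set of AT3G09440, and the 5 probe sets of the other 4 genes (grey) lie between the lines.

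Among measured genes with a named probe set, those closest in ratio to DREB2C and Hsp70-2 were found by the absolute difference in log2 ratio. The genes described in this report were left out of the search. Over 2 arrays this rests on 1 ratio per gene, and probe sets that name no gene were not searched. Closest to DREB2C were AT1G23710 at 23.1 in NOT against 171.4 in WDC, AT2G41380, a methyltransferase-like protein, and AT4G24160, a lysophosphatidic acid acyltransferase. Their log2 ratios were -2.89, -2.97 and -2.65, and the probe set of AT4G24160 carries the shared mark. Closest to Hsp70-2 were AT1G08940 with 24.1 in NOT against 69.5 in WDC, AT1G23205 with 49.1 and 140.6, and HHP2, a membrane protein with several spans, with 14.8 and 41.3. Their log2 ratios were -1.53, -1.52 and -1.48. None of these 6 genes was in the heat shock and DREB lists. This was settled beforehand, since the other 4 measured genes of those lists all lay within 1.5-fold.

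The neighbours of the 6 genes in RefSeq's gene order could be followed in 2 cases. AT2G40350, next to DREB2C, is given above. AT2G29510, next to AT2G29500, read 19.3 on the NOT array and 16.7 on the WDC array, a log2 ratio of 0.21. The other 10 neighbouring protein-coding genes had no named probe set here.

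On the arrays as a whole, the median log2 ratio of the 4753 measured probe sets was 0.00, with quartiles of -0.24 and 0.22. The 9 spiked-in hybridisation controls had a median log2 ratio of -0.14, so scaling to them raised every ratio by that amount. The leaf label was checked against its markers, of which 3 of 15 had a named probe set. RCA, the activase of the carbon-fixing enzyme Rubisco, read 2469.2 in NOT against 2441.5 in WDC, and PSAN of photosystem I and SBPASE of the Calvin cycle had log2 ratios of -0.23 and -0.30. All 4 root markers with a named probe set, of 7 listed, lay between 0.4 and 2.6, under the floor on both arrays. None of 8 markers of seed, flower and pollen had a named probe set.

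The ratios were recomputed under 4 other scalings, 2 other floors and an offset. Over the settings in which they were measured, the log2 ratio of DREB2C ranged from -2.83 to -2.64, that of AT1G59860 from -2.56 to -2.41, and that of the brightest Hsp70-2 probe set from -1.57 to -1.38. These 3 genes stayed more than 2-fold lower in NOT in all of them. The ratio of AT2G29500 ranged from -0.37 to -0.23. For AT3G09440 the brightest probe set ranged from -0.25 to -0.01 and the second from -0.68 to -0.46.

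**Figure D5:**
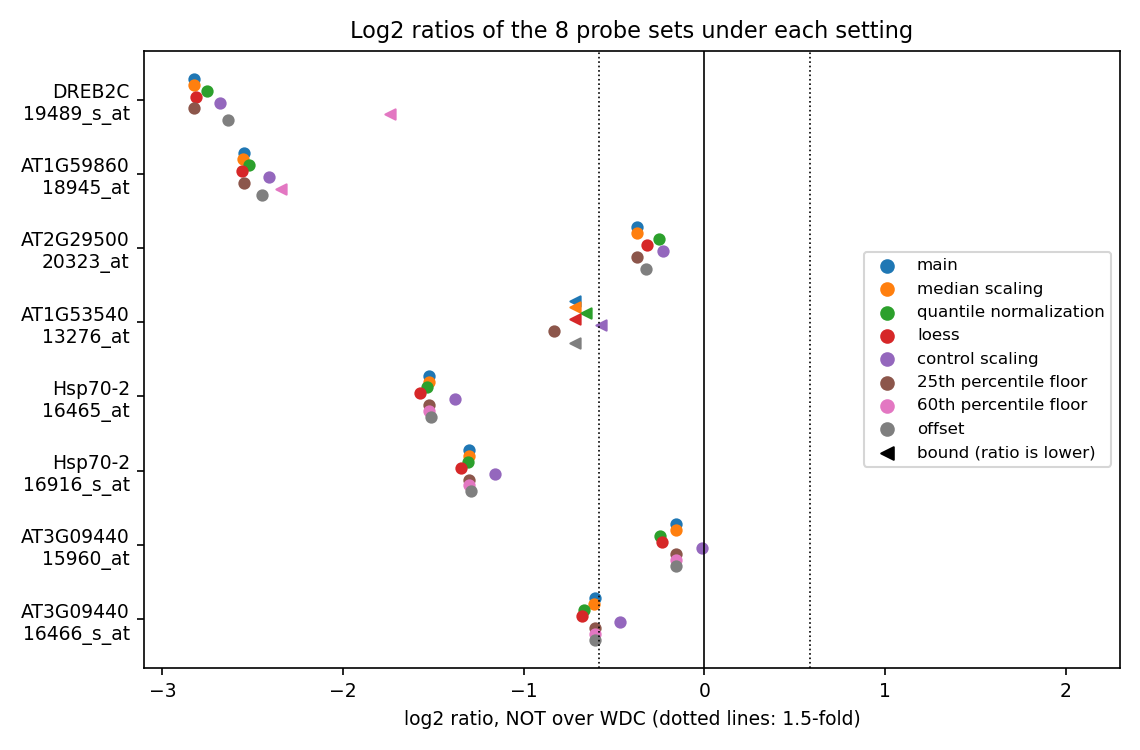
Log2 ratio of NOT over WDC of the 8 probe sets under 8 processing settings (colours), with triangles where the NOT signal lay under the floor and the value is a bound, and dotted lines at 1.5-fold. DREB2C, AT1G59860 and Hsp70-2 stay left of the lower dotted line throughout, AT2G29500 and the brightest probe set of AT3G09440 stay right of it, and the second probe set of AT3G09440 and the bound of AT1G53540 cross it with control scaling.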

How the data were processed

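Per the labels, biotin-labelled cRNA of each sample was hybridised to 1 Affymetrix array, with a mean scanner background of 75.02 (NOT) and 76.78 (WDC). The deposited values are 1 linear intensity per probe set and array, which the authors had scaled, judging from the values (mean after trimming 2% at each end of 100.1 on both arrays). The sources used here do not name the summarising software. Of 8297 probe sets, 50 controls were left out. Genes were named through the platform's annotation, matched to RefSeq (TAIR10.1, for names and gene order) for 3784 of 3794 probe sets that name 1 gene. Probe sets ending in a letter before "_at" count as marked for shared or similar sequence.

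Log2 ratios of NOT over WDC used no offset and the floor of 12.5. The brightest probe set stood for a gene, and calls used 1.5-fold and 2-fold rules. Named genes were, by rule, the 6 genes, every listed heat shock or DREB gene with a named probe set, and the 3 genes closest in ratio to DREB2C and to Hsp70-2. Outside this rule, SGT1A and SQN were added after their values were seen. Neighbours in gene order and tissue markers were also named. Members, lists and the floor were chosen with earlier results of these data known. Alternatives were median scaling, quantile normalization, loess (span 0.4), spiked-in control scaling, floors at the 25th and 60th percentiles (4.3 and 40.1), an offset of 0.25 of the floor, leaving out marked probe sets, the mean over probe sets and the 2-fold rule. Scripts used Python 3.11.15, numpy 2.4.6, pandas 2.3.3 and statsmodels 0.14.6, and were tested on simulated data. No sequences are printed, since none was in the tables used here.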

Additional observations from a re-analysis of the deposited data

How the results depend on the processing

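No direction turned among the 8 probe sets under the 7 alternatives in which they had a value. With the 60th percentile floor (40.1) the NOT signals of DREB2C and AT1G59860 fell under the floor, which left bounds of -1.74 and -2.34 on the log2 scale, AT2G29500 and AT1G53540 lay under the floor on both arrays and gave no value, and the count of listed genes at least 1.5-fold lower was 1 of 4 measured, Hsp70-2. With quantile normalization, loess and control scaling 1 listed gene, AT4G16660, was at least 1.5-fold higher, against 0 in the report. Control scaling moved the median of all probe sets to 0.14, and with it the bound of AT1G53540 came to -0.57, short of 1.5-fold. Without probe sets marked for shared sequence DREB2C was lost and 2 of 8 measured genes were at least 1.5-fold lower. The 25th percentile floor gave 4 lower genes of 10 by adding AT1G53540. In all, 6 recomputed values moved by more than the scatter of probe sets of a gene or, for counts, by more than 1.5 times. They were the bounds and the lower count with the 60th percentile floor, and the counts of higher genes given above. The other 77 stayed within these limits, among them the bound of AT1G53540, the 2 of 8 and the 4 of 10. Most had to, given constant shifts or floors that leave measured ratios unchanged. No paired analysis was possible because each group holds 1 array. Signal over background limits the ratios of DREB2C, AT2G29500 and AT1G53540, whose NOT signals lie within 1.51 times the floor.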
